A study of Mus musculus with 20 samples.

Results

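Expression of the interferon-gamma-induced GTPases was followed in mouse regulatory T cells (Tregs) through 10 genes. These were the guanylate-binding proteins Gbp2, Gbp3, Gbp5, Gbp6 and Gbp7, the immunity-related GTPases Iigp1, Igtp, Irgm1 and Irgm2, and Irf1. Irf1 is a transcription factor that binds elements of the GTPase genes. The genes were chosen because Gbp2 and Iigp1 were higher after stimulation while other interferon genes were lower, so their response to stimulation is described here and was not tested. Each gene was represented by the probe set that the array annotation gives its symbol. A named probe set was available for 8 of the 10 genes, among 19505 genes in all: 3 Gbp genes, 4 immunity-related GTPase genes and Irf1. Gbp5 and Gbp6 were not analysed here.

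Clariom S arrays, 1 per sample and 20 in all, measured the RNA of Tregs from mice on the C57BL/6 background, enriched with CD4 beads and then sorted for CD4 and CD25. The Rheb experiment compared wild-type (WT) Tregs with Tregs lacking Rheb1 and Rheb2 (Rheb KO), each unstimulated or stimulated, on 12 arrays with 3 per group. The Rag experiment set WT Tregs against Tregs lacking RagA and RagB (Rag KO), each unstimulated or stimulated for 8 h, on 8 arrays with 2 per group. The stimulus, its duration in the Rheb experiment, the promoter or Cre that removed the genes, and the age of the mice are not stated in the labels. Nor is it stated that the replicate arrays stem from different animals, so the p-values speak for the variation among these samples alone, which may be technical. For 6 arrays of the Rheb experiment the treatment field names the state opposite to the title; the groups follow the titles, with which the source names and the described design match.

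Interferon-gamma binds a receptor made of Ifngr1 and Ifngr2, whose kinases Jak1 and Jak2 pass the signal on. Genes with GAS elements, among them Irf1, are switched on, and Irf1 in turn binds interferon-stimulated response elements (ISRE) of the GTPase genes, which factors of the type I interferon pathway can bind too. The guanylate-binding proteins coat vacuoles and bacteria inside cells. Iigp1 is an effector of the immunity-related GTPases that disrupts such vacuoles, while Irgm1, Irgm2 and Igtp are regulators that hold the effectors back from the membranes of the cell itself. Interferon-gamma is the main cytokine of Th1 cells, and Tregs can both receive it and, in Th1 settings, produce it. The Rheb and Rag GTPases switch on the growth kinase complex mTORC1, the Rags in answer to amino acids.

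The upstream sequences are shown as a feature of the members that was not read from the arrays. The members were picked as interferon-gamma-induced genes, a choice that itself favours GAS and ISRE letters, so nothing is read from the shares below. Windows of 300 bases around the start sites, 250 before and 50 after, were taken from RefSeq (build GRCm38.p6) for 7 of the measured members. The upstream sequence of Iigp1 was not analysed here, so the counts do not cover it. The windows were searched on both strands for the GAS letters TTCNNNGAA and for an ISRE core, GAAA followed by any 2 bases and GAAA again, or its reverse complement. The ISRE core was found in 6 of the 7 members and in 3.44% of all 32851 promoter windows, and GAS in 4 of the 7 and in 8.3% of all windows. Gbp7, Igtp and Irgm2 held both, as did 0.454% of all windows. The 110 bases before the start site held every match and are given 5′ to 3′, with the matches in capitals.
Gbp2, chr3:142620553-142620662, plus strand: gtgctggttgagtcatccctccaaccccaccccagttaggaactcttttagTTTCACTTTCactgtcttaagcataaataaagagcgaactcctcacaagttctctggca
Gbp3, chr3:142559934-142560043, plus strand: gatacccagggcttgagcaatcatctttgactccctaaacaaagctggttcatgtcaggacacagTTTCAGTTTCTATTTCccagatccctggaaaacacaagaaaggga
Gbp7, chr3:142530226-142530335, plus strand: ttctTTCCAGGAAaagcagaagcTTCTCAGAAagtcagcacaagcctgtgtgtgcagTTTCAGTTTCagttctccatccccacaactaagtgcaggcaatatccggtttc
Igtp, chr11:58199446-58199555, plus strand: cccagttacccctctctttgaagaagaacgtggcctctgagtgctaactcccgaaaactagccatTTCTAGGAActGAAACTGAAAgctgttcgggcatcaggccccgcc
Irgm2, chr11:58214867-58214976, plus strand: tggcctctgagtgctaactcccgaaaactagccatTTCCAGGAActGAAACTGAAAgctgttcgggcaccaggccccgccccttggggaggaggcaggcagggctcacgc
Irgm1, chr11:48871421-48871530, minus strand: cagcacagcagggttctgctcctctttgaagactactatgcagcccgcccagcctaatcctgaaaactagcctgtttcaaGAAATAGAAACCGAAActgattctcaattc
Irf1, chr11:53769904-53770013, plus strand: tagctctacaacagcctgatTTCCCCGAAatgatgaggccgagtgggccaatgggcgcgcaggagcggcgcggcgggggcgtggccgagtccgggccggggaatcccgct
In Gbp2 the ISRE core TTTCACTTTC began 59 bases before the start site, and in Irf1 the GAS match TTCCCCGAA began 90 bases before it, with no ISRE core in that window. The GAS and ISRE matches of Igtp and of Irgm2 stood at the same spacing, and both windows shared an identical run of 61 bases. These genes are neighbours on chromosome 11 with 0 protein-coding genes between them, while the longest run shared by the Gbp2 and Gbp3 windows was 9 bases. Gbp3 and Irf1 have a further annotated start whose window held no match. A match is a description of the letters and was not tested for binding.

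The targeted genes were read first. In the Rheb experiment the KO arrays all had less Rheb signal than the WT arrays of their state (differences of -0.88 and -0.93 log2), and in the Rag experiment the same held for Rraga, which encodes RagA (-2.43 and -2.18), while the groups overlapped in Rragb, which encodes RagB. Rhebl1, which encodes Rheb2, differed by -0.38 with overlapping arrays without stimulation and by -0.76 without overlap with it (not called). It lay at 4.99 to 6.10 log2 on the Rheb arrays, below the medians of the negative controls there (6.86 to 7.16). Rragb lay at 6.56 to 7.62 on the Rag arrays, where these medians were 6.11 to 6.62. These signals thus do not show whether Rheb2 or RagB was lost. Rheb was also lower without overlap in unstimulated Rag KO (-0.75, not called). Array medians ranged from 7.67 to 7.77 log2 for the Rheb arrays and from 7.18 to 7.55 for the Rag arrays, the lowest being WT unstimulated array 2 (7.18) and Rag KO unstimulated array 1 (7.29). Of 12 Treg genes written, 9 were measured, with mean levels from 10.5 to 11.8 log2 in the arrays; Foxp3, which defines Tregs, was not analysed here because no probe set carries its name. The T cell list (8 measured) lay between 11.0 and 11.9. Since the cells were measured in bulk, fewer cells of a type and less RNA per cell cannot be told apart.

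Gbp2 separated all 4 groups in both experiments. In the Rheb experiment its log2 signal was 8.99, 8.72 and 9.05 in unstimulated WT, 8.32, 7.96 and 8.40 in unstimulated Rheb KO, 10.76, 10.60 and 10.78 in stimulated WT, and 11.01, 10.99 and 11.31 in stimulated Rheb KO. Rheb KO was the lower genotype without stimulation and the higher with it. On the Rag arrays Gbp2 was at 8.82 and 8.53 in unstimulated WT, 7.68 and 8.00 in unstimulated Rag KO, 9.98 and 9.99 in stimulated WT, and 10.67 and 10.37 in stimulated Rag KO. The 4 groups stood in the same order again, with no overlap between neighbouring groups. The stimulated signal exceeded the unstimulated by 1.80 ± 0.14 log2 (SE, 3.47-fold) in WT and 2.88 ± 0.14 (7.35-fold) in KO in the Rheb experiment, and by 1.31 ± 0.24 (2.48-fold) in WT and 2.68 ± 0.24 (6.42-fold) in KO in the Rag experiment. Gbp2 exceeded the 95th percentile of the array's negative controls on every stimulated and on no unstimulated array.

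**Figure D1:**
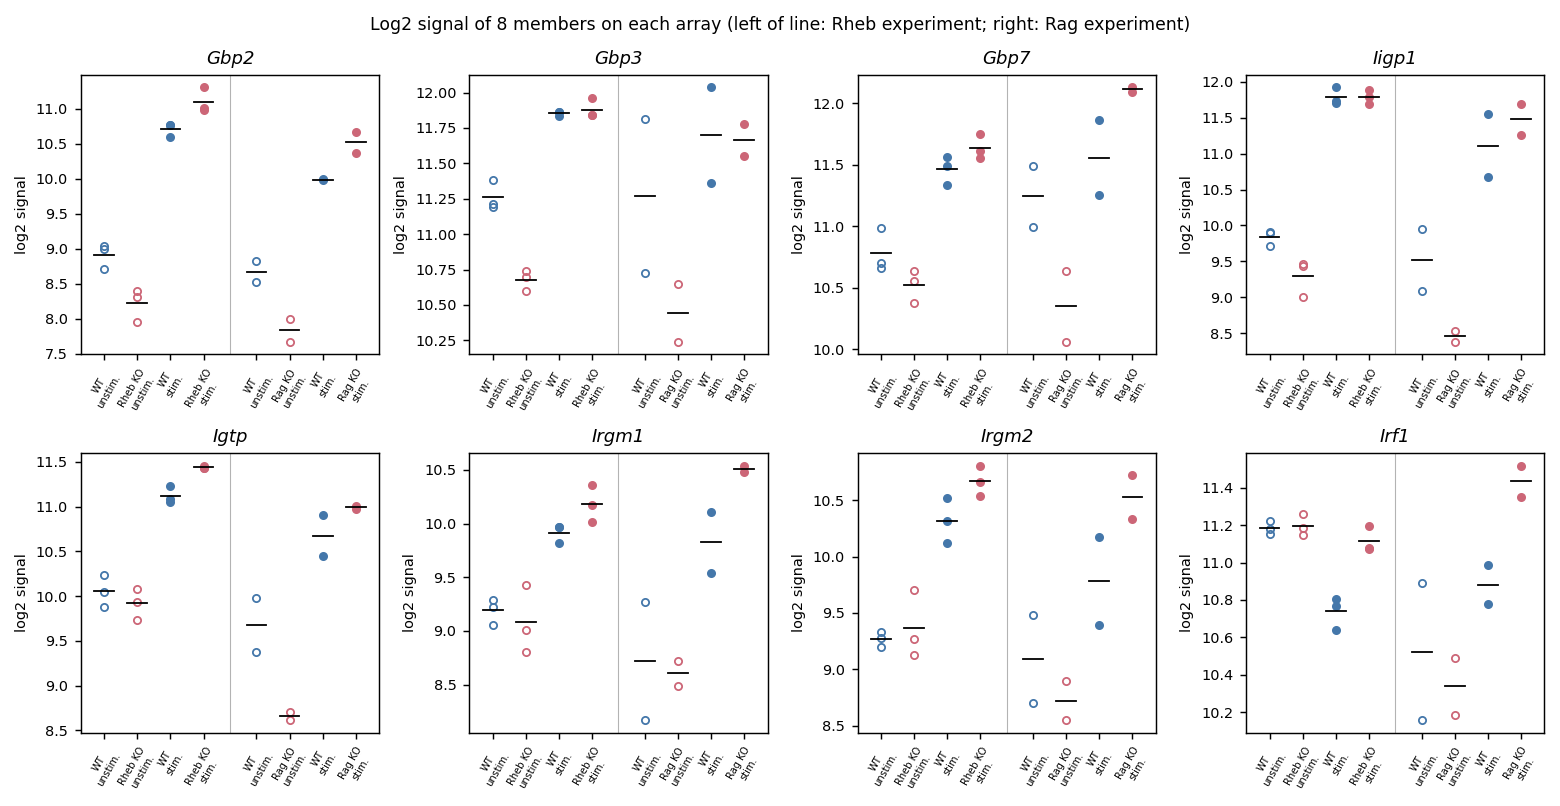
Log2 signal of the 8 measured members on each array, by group; open circles are unstimulated and filled circles stimulated arrays, blue is WT, red is KO, and the black bar is the group mean. The KO arrays of Gbp2 lie lowest without stimulation and highest with it in both experiments, and Irf1 is the only one of the 8 that is lower in stimulated than in unstimulated WT of the Rheb experiment.

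For Iigp1 the genotypes were apart without stimulation and overlapped with it in both experiments. In the Rheb experiment its signal was 9.90, 9.72 and 9.90 in unstimulated WT, 9.44, 9.0 and 9.47 in unstimulated KO, 11.92, 11.73 and 11.70 in stimulated WT, and 11.69, 11.78 and 11.88 in stimulated KO. The 3 stimulated KO arrays lay within or next to the range of the WT arrays. On the Rag arrays it was 9.96 and 9.09 in unstimulated WT, 8.39 and 8.54 in unstimulated KO, 11.55 and 10.67 in stimulated WT, and 11.69 and 11.26 in stimulated KO. The WT arrays of each state lay far apart there. The difference between stimulated and unstimulated Iigp1 was 1.94 ± 0.13 log2 in WT and 2.48 ± 0.13 in KO of the Rheb experiment, and 1.59 ± 0.34 and 3.01 ± 0.34 in the Rag experiment.

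The 3 regulatory GTPase genes were higher after stimulation by smaller amounts. Igtp was at 10.05, 9.88 and 10.24 in unstimulated WT, 9.94, 9.74 and 10.08 in unstimulated Rheb KO, 11.23, 11.09 and 11.05 in stimulated WT, and 11.43, 11.46 and 11.43 in stimulated Rheb KO. On the Rag arrays it was at 9.98 and 9.37 in unstimulated WT, 8.70 and 8.62 in unstimulated KO, 10.91 and 10.45 in stimulated WT, and 11.01 and 10.97 in stimulated KO. Its genotypes overlapped in the unstimulated Rheb experiment and were apart elsewhere. The response of Igtp was 1.07 and 1.52 log2 in WT and KO of the Rheb experiment and 1.00 and 2.33 in the Rag experiment. Irgm2 followed with 1.05, 1.30, 0.70 and 1.81 in the same order, and Irgm1 with 0.73, 1.10, 1.10 and 1.90.

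The other Gbp genes were well measured in every group. Gbp3 lay between 10.24 and 12.04 on all arrays and Gbp7 between 10.06 and 12.13, above that percentile of the negative controls on all 20, as was Irf1. Of the 10 unstimulated arrays, Igtp exceeded it on 4, Iigp1 on 1, and Irgm1, Irgm2 and Gbp2 on 0, so that differences taken from unstimulated arrays of these genes rest mostly on signals within the range of the negative controls. The response of Gbp3 was 0.59 log2 in WT and 1.20 in KO of the Rheb experiment, and 0.43 and 1.22 in the Rag experiment. The response of Gbp7 was 0.68 and 1.12 in the Rheb experiment and 0.31 and 1.76 in the Rag experiment. In WT of the Rag experiment the stimulated and unstimulated arrays of both genes overlapped.

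Irf1 was the exception among the members. In the Rheb experiment it was at 11.15, 11.22 and 11.18 in unstimulated WT and at 10.81, 10.64 and 10.77 in stimulated WT, a difference of -0.45 ± 0.09 log2 with no overlap. In Rheb KO it was at 11.15, 11.19 and 11.26 without stimulation and at 11.19, 11.08 and 11.07 with it, and these arrays overlapped (-0.08 ± 0.09). In the Rag experiment the signal was 10.89 and 10.16 in unstimulated WT, 10.18 and 10.49 in unstimulated KO, 10.98 and 10.78 in stimulated WT, and 11.52 and 11.35 in stimulated KO. The stimulated KO arrays stood above the other 6 arrays there, by 1.10 ± 0.27 over unstimulated KO, while the WT arrays of both states overlapped. Without array 1 of unstimulated WT the Irf1 response of Rag WT was 0.72, and without array 2 it was -0.01.

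Counted over the members, stimulated arrays lay above unstimulated ones without overlap for 7 of 8 in WT of the Rheb experiment (12.9% of all genes), 7 of 8 in Rheb KO (13.5%), 4 of 8 in WT of the Rag experiment (37.3%) and 8 of 8 in Rag KO (31.9%). Irf1 lay below in WT of the Rheb experiment (11.5% of all genes). In Rag WT the count was 8 without unstimulated array 1 or without stimulated array 2. The genes were chosen by this contrast, so nothing is read from these shares. The median response of the members was 0.89, 1.25, 0.85 and 1.86 log2, and that of all genes 0.02, -0.01, 0.21 and 0.09. In Rag WT the median of all genes was thus itself shifted by over 0.1, and after a second quantile normalization the responses of Gbp3, Gbp7 and Irf1 there were 0.21, 0.10 and 0.20. The same step lowered the response of all 8 members in Rag KO, to 0.67 for Irf1, 0.80 for Gbp3, 1.34 for Gbp7, 1.46 for Irgm2, 1.56 for Irgm1, 1.97 for Igtp, 2.40 for Gbp2 and 2.67 for Iigp1.

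The choice of members states that other interferon genes were lower after stimulation. This held for most type I genes except in Rag KO, while the other interferon-gamma-induced genes were mixed. Of 37 measured type I interferon-stimulated genes, 32, 32 and 30 were below 0 in WT of the Rheb experiment, Rheb KO and WT of the Rag experiment, with medians of -0.46, -0.52 and -0.42 log2. In Rag KO 16 were below 0 and 21 above, with a median of 0.07. Of 25 other genes induced by interferon-gamma (antigen presentation genes, chemokines and the checkpoint ligand Cd274), 11, 16, 19 and 18 were above 0 in the 4 comparisons, with medians of -0.01, 0.09, 0.24 and 0.52. Of all genes 54.7%, 47.3%, 73.1% and 61.9% were above 0 in the same order, and 45.3%, 52.7%, 26.9% and 38.1% below. The members overlap neither list, and no list was compared by a test.

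**Figure D2:**
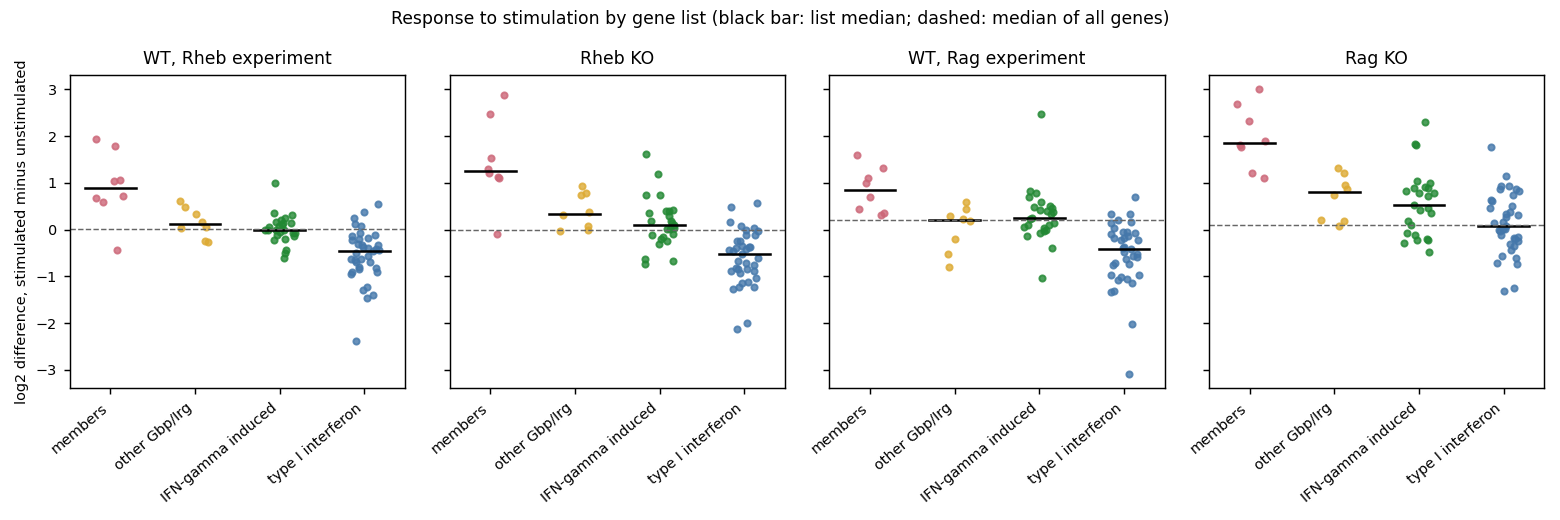
Difference in log2 signal between stimulated and unstimulated arrays for each gene, by gene list, in the 4 genotype groups; each point is a gene, the black bar the list's median and the dashed line the median of all genes. The members have the highest median of the lists in all 4 panels, with Irf1 as the point below 0 in both Rheb panels, and the type I genes have medians of -0.46, -0.52, -0.42 and 0.07.

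Without stimulation, 2 members passed the test in Rheb KO. Gbp2 fell by 0.69 ± 0.14 log2 (1.62-fold lower, adjusted p = 0.0479 by limma) and Gbp3 by 0.58 ± 0.09 (1.50-fold lower, adjusted p = 0.0125); Gbp3 was at 11.19, 11.22 and 11.38 in WT and at 10.70, 10.60 and 10.74 in KO. These were 2 of 8 members called lower, where 0.282% of all genes were called lower and 0.508% in either direction. In Iigp1 (-0.54 ± 0.13, adjusted p = 0.106) and Gbp7 (-0.26 ± 0.12, adjusted p = 0.465) every KO array also lay below every WT array without passing the test. KO arrays thus lay below WT arrays for 4 of 8 members, as for 7.08% of all genes. Igtp (-0.14 ± 0.11), Irgm1 (-0.11 ± 0.15), Irgm2 (0.10 ± 0.15) and Irf1 (0.01 ± 0.09) overlapped, so that 6 of 8 members and 45.9% of all genes were below 0.

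The call of Gbp2 was made under 5 of 19 alternatives (adjusted p from 0.0153 to 0.177). It was lost after a second quantile normalization (0.0518), with all 20 arrays in the fit (0.105), with only the 2 groups compared (0.161), and when any array other than WT unstimulated array 2 was left out (0.0539 to 0.177). The call of Gbp3 was made under 15 of 19 (0.000237 to 0.597) and was lost with all 20 arrays (0.597), with the 2 groups compared (0.101), and without WT unstimulated array 3 (0.0612) or KO unstimulated array 2 (0.0666). In the same comparison 10 of 10 measured macrophage markers were above 0, and C1qa and Ms4a7 were called. The mean level of that list was 7.75 to 7.85 log2 in KO and 7.32 to 7.40 in WT arrays, with 1 and 2 of its genes below the median of the negative controls on all arrays of the group. Of 11 dendritic cell markers 9 were above 0, H2-Ab1 and H2-Eb1 were called, and the list lay at 7.76 to 7.90 in KO and 7.50 to 7.62 in WT arrays. Of 9 Treg genes 8 were below 0, Lrrc32 was called lower, and the list lay at 10.87 to 11.08 in KO and 11.19 to 11.23 in WT. The T cell list lay at 11.62 to 11.65 in KO and 11.74 to 11.77 in WT. For the CD8 T cell list the levels were 8.24 to 8.27 and 8.10 to 8.22. NK cell list levels were 6.85 to 7.07 and 6.48 to 6.82, with 3 and 5 of 9 genes below that median on all arrays. Il18r1 of the Th1 list was called higher, while B cell, neutrophil and Th1 list levels overlapped. The part of these cells in the result was not tested.

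With stimulation, Rheb KO arrays were not below WT in any member's mean, and no member passed the test. All 8 differences were above 0, as were 47.3% of all genes, and 0 members were called where 0.543% of all genes were (4 members and 1804 genes had an unadjusted p under 0.05). The largest were Gbp2 (0.39 ± 0.14, adjusted p = 0.358), Irf1 (0.38 ± 0.09, adjusted p = 0.0968), Irgm2 (0.35 ± 0.15, adjusted p = 0.473) and Igtp (0.32 ± 0.11, adjusted p = 0.37). KO arrays lay above WT arrays without overlap in these 4 and in Irgm1 (0.26 ± 0.15), 5 of 8 members against 6.75% of all genes. The differences of Iigp1 (0.00 ± 0.13) and Gbp3 (0.03 ± 0.09) turned below 0 when some arrays were left out. Irf1 was called when the dimmest 40% of genes were removed (adjusted p = 0.0452) and with a trended variance prior (0.00738), and in no other of its 19 alternatives, which ranged up to 0.994. The NK cell list lay at 6.32 to 6.71 in stimulated KO and 6.16 to 6.30 in stimulated WT arrays, with 5 and 6 of its 9 genes below the median of the negative controls on all arrays. All 8 measured T cell genes were below 0, 7 of them without overlap, at list levels of 11.08 to 11.18 in KO and 11.32 to 11.36 in WT. Of 9 Treg genes 8 were below 0, 4 without overlap, at list levels of 11.40 to 11.45 in KO and 11.52 to 11.54 in WT. H2-Eb1 of the dendritic cell list, Nkg7 of the CD8 T cell list and Il18r1 of the Th1 list were called higher. In these lists 9 of 11, 4 of 7 and 7 of 8 genes were above 0. Of the CD8 T cell list 2 genes were higher and 2 lower without overlap, and of the dendritic cell list 1 and 1. The part of these genes' cells in the result was not tested.

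The response to stimulation was larger in Rheb KO than in WT for all 8 members by mean. This interaction shares its arrays with the contrast by which the genes were chosen. The difference of the responses was 1.08 ± 0.20 log2 for Gbp2 (adjusted p = 0.243), 0.61 ± 0.13 for Gbp3 (0.304), 0.54 ± 0.18 for Iigp1 (0.703), 0.45 ± 0.16 for Igtp (0.713) and 0.44 ± 0.16 for Gbp7 (0.736). For Irgm1, Irf1 and Irgm2 it was 0.38, 0.36 and 0.26. Of all genes 45.0% were above 0, and limma called 0 genes in the whole table (0%) and 0 members. At an unadjusted p under 0.05 there were 6 members and 1207 genes (6.19%). With the trended variance prior 7 genes were called, among them Gbp2 (0.048) and Gbp3 (0.0246). In the same interaction 10 of 10 macrophage markers were below 0 (median -0.28) and 9 of 9 Treg genes above 0 (median 0.12), with 0 of either called, and their part was not tested.

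In the Rag experiment, unstimulated KO arrays had a lower mean for all 8 members, and no member passed the test. The differences were -1.06 ± 0.34 log2 for Iigp1 (2.09-fold lower, adjusted p = 0.578), -1.02 ± 0.26 for Igtp (2.02-fold, 0.392), -0.89 ± 0.29 for Gbp7 (1.86-fold, 0.59), -0.84 ± 0.24 for Gbp2 (1.79-fold, 0.474) and -0.83 ± 0.34 for Gbp3 (1.77-fold, 0.703). KO arrays lay below WT arrays without overlap in these 5, against 12.5% of all genes, and the other 3 members overlapped. Of all genes 45.7% were below 0 and limma called 22 (0.113%); at an unadjusted p under 0.05 there were 5 members and 1300 genes. With all 20 arrays in the fit Gbp2 (0.0371), Gbp7 (0.0486) and Igtp (0.0121) were called.

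The unstimulated WT arrays of the Rag experiment lay far apart, at 9.27 and 8.17 log2 in Irgm1 and at 11.81 and 10.73 in Gbp3. Without WT unstimulated array 1, the differences of Irgm1, Irgm2 and Irf1 turned to 0.44, 0.02 and 0.18, leaving 5 of 8 below 0, and Irgm1 also turned after a second quantile normalization (0.00565) and without KO unstimulated array 2 (0.00295). Without both Rag arrays of lowest median, which leaves 1 array against 1 with the spread taken from the other groups, 8 of 8 members were below 0 and 0 were called. All 7 measured neutrophil markers were above 0 in the same comparison (median 1.17 log2). The level of that list was 7.21 to 9.13 in unstimulated KO arrays and 6.37 to 7.62 in WT arrays, with 0 and 1 of its genes below the negative controls' median on all arrays, and 1 gene without overlap. Of 11 dendritic cell markers 10 were above 0, 8 without overlap, Ccr9 was called higher, and the list was at 7.42 or above in KO and at 7.05 or below in WT arrays. Of 8 T cell genes 7 were below 0, and of 9 Treg genes 7. Their part in the result was not tested.

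With stimulation, 7 of 8 members were above 0 in Rag KO, as were 41.5% of all genes, and 0 members were called (2 had an unadjusted p under 0.05, as did 988 genes), where limma called 0.103% of all genes. The differences were 0.74 ± 0.32 log2 for Irgm2, 0.68 ± 0.33 for Irgm1, 0.56 ± 0.29 for Gbp7, 0.55 ± 0.27 for Irf1 and 0.53 ± 0.24 for Gbp2, each with an adjusted p of 0.947. For Iigp1 and Igtp they were 0.36 and 0.32, and for Gbp3 -0.03 ± 0.34. KO arrays lay above WT arrays without overlap in Gbp2, Gbp7, Igtp, Irgm1, Irgm2 and Irf1, 6 of 8 members against 18.1% of all genes. Gbp3 turned above 0 without WT stimulated array 1 (0.30) or KO stimulated array 2 (0.08), and Iigp1 below 0 without WT stimulated array 2 (-0.07). In the same comparison 6 of 7 neutrophil markers were above 0, at list levels of 6.92 to 9.0 in KO and 6.63 to 7.06 in WT arrays, and the NK cell list lay at 6.23 to 6.63 and 5.90 to 6.04. Their part in the result was not tested.

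Here too the response was larger in KO by mean for all 8 members (43.9% of all genes). The difference of the responses was 1.45 ± 0.41 log2 for Gbp7, 1.42 ± 0.47 for Iigp1, 1.37 ± 0.34 for Gbp2, 1.33 ± 0.37 for Igtp, 1.11 ± 0.46 for Irgm2, 0.80 ± 0.46 for Irgm1, 0.79 ± 0.48 for Gbp3 and 0.74 ± 0.38 for Irf1. Each had an adjusted p of 0.728, and limma called 0 genes in the whole table (0%); at an unadjusted p under 0.05 there were 5 members and 1202 genes (6.16%). With all 20 arrays in the fit Gbp2 was called (0.0401), and without KO unstimulated array 2 Gbp2 and Gbp7 were called, with 387 genes in all. In the same interaction 8 of 9 Treg genes were above 0 (median 0.64) and 8 of 10 macrophage markers below 0 (median -0.20), and their part was not tested. The interaction was above 0 in both experiments for 8 of 8 members and for 22.9% of all genes. In the Rag interaction 33 of 37 type I genes were also above 0 (median 0.54). So were 12 of 15 interferon-gamma signalling genes, 16 of 17 autophagy and inflammasome genes and 16 of 25 other interferon-gamma-induced genes. In the Rheb interaction 15, 12, 12 and 13 genes of these lists were above 0, in the same order. The sign was thus not particular to the members in either experiment. Of the type I genes fewer had it in the Rheb than in the Rag experiment. A lower KO mean without and a higher KO mean with stimulation was found in 6 of 8 members in the Rheb experiment (18.6% of all genes) and in 7 of 8 in the Rag experiment (23.3%).

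**Figure D3:**
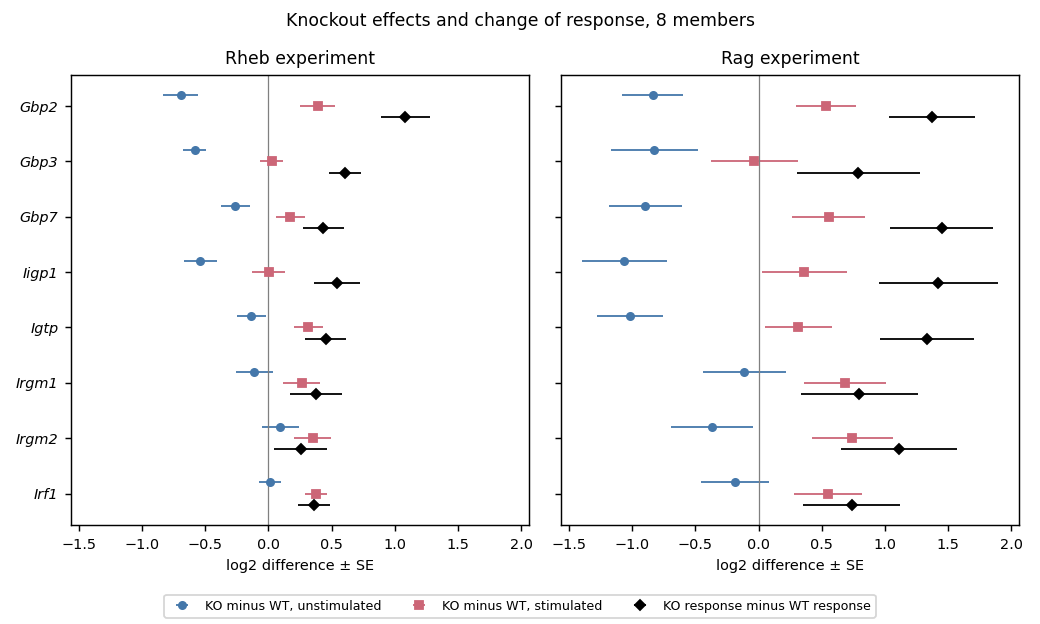
Log2 difference between KO and WT without stimulation (blue circles) and with it (red squares), and the difference of the responses (black diamonds), for the 8 members in the Rheb experiment (3 arrays per group) and the Rag experiment (2 per group); bars are standard errors of the fit. The black diamonds lie above 0 for all 8 members in both experiments, and of all the differences plotted Gbp2 and Gbp3 without stimulation in the Rheb experiment are those with an adjusted p below 0.05.

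The effects of the Rag and Rheb knockouts were then compared directly in 1 model over the 8 groups, where the WT of the same experiment served each knockout as its reference. No member was called without stimulation (0.0564% of all genes) or with it (0.19%). Without stimulation the Rag effect was the lower for all 8 members by mean, with -0.88 ± 0.25 log2 for Igtp (95% interval -1.41 to -0.35, adjusted p = 0.359) and -0.63 ± 0.28 for Gbp7 (-1.22 to -0.05, adjusted p = 0.643). At an unadjusted p under 0.05 there were 2 members, these, and 1426 genes. With stimulation 6 of 8 were above 0, from -0.06 for Gbp3 to 0.42 for Irgm1, and at an unadjusted p under 0.05 there were 0 members and 1377 genes. For Gbp2 the difference was -0.14 (-0.66 to 0.37) without and 0.14 (-0.37 to 0.66) with stimulation.

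Among the other genes of the pathway, the ligand stood out by the size of its differences. Ifng was at 8.67, 8.37 and 8.91 log2 in unstimulated WT, 7.83, 8.25 and 8.32 in unstimulated Rheb KO, 8.46, 7.09 and 7.62 in stimulated WT, and 8.48, 9.80 and 9.12 in stimulated Rheb KO. The Rag arrays gave 7.77 and 7.39 in unstimulated WT, 6.13 and 6.59 in unstimulated KO, 7.83 and 6.35 in stimulated WT, and 9.34 and 8.94 in stimulated KO. In both experiments KO was the lower genotype without and the higher with stimulation, as for Gbp2, and no group pair of the same state overlapped. On no array was Ifng above the level that 95% of negative controls stayed under. In unstimulated Rag KO it lay at the controls' medians of 6.11 and 6.55, and stimulated WT array 2 of that experiment was near its own of 6.14. Each Rag difference thus rests in part on signals at background. Both unstimulated WT arrays (7.77 and 7.39) and stimulated WT array 1 (7.83) lay above their controls' medians of 6.41, 6.62 and 6.33. The measured KO difference was -0.52 ± 0.34 without and 1.41 ± 0.34 with stimulation in the Rheb experiment (adjusted p = 0.664 and 0.106), and -1.22 ± 0.39 and 2.05 ± 0.39 in the Rag experiment (0.578 and 0.0838).

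The measured differences of the Ifng responses were 1.93 ± 0.48 (adjusted p = 0.536) in the Rheb experiment and, with unstimulated Rag KO at background, 3.28 ± 0.55 (0.728) in the Rag experiment. The stimulated Rag difference was called under 10 of 17 alternatives (4.97e-05 to 1), the Rag interaction under 5 of 16 (2.98e-06 to 1), the unstimulated Rag difference under 1 of 17 (0.0175 to 1), and the Rheb differences under none of theirs. In WT the Ifng response was -0.92 ± 0.34 and -0.49 ± 0.39, with overlapping arrays, while the mean of each member other than Irf1 was higher after stimulation in the same arrays. The Th1 list, which contains Ifng, lay at 9.27 to 9.56 in stimulated Rag KO and 8.23 to 9.04 in stimulated WT, and at 9.32 to 9.54 and 8.92 to 9.12 in the Rheb experiment. Whether Ifng has a part in the member differences was not tested.

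Of 15 measured signalling genes other than Irf1, 0 were called in any knockout comparison or interaction. The receptor chain Ifngr1 was higher after stimulation by 1.02, 1.08, 0.49 and 1.15 log2 in WT and KO of the Rheb and then the Rag experiment, and Ifngr2 by 0.34, 0.30, 0.39 and 0.76. Jak2 followed with 0.44, 0.55, 0.59 and 1.74, whereas Jak1 was at -0.33, -0.22, -0.24 and 0.20. Socs1, the feedback inhibitor of the receptor kinases, was higher by 0.53, 0.66, 1.13 and 1.72, and Irf8 by 0.57, 1.04, 1.63 and 1.92, while Irf2 (-0.03, 0.08, -0.39 and 0.30) and Irf9 (-0.24, -0.13, -0.04 and 0.68) were not higher in WT. Stimulated Rag KO minus WT was 0.98 ± 0.29 for Socs1 (adjusted p = 0.435), 0.83 ± 0.29 for Ifngr1 (0.698) and 0.67 ± 0.29 for Jak2 (0.947).

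**Figure D4:**
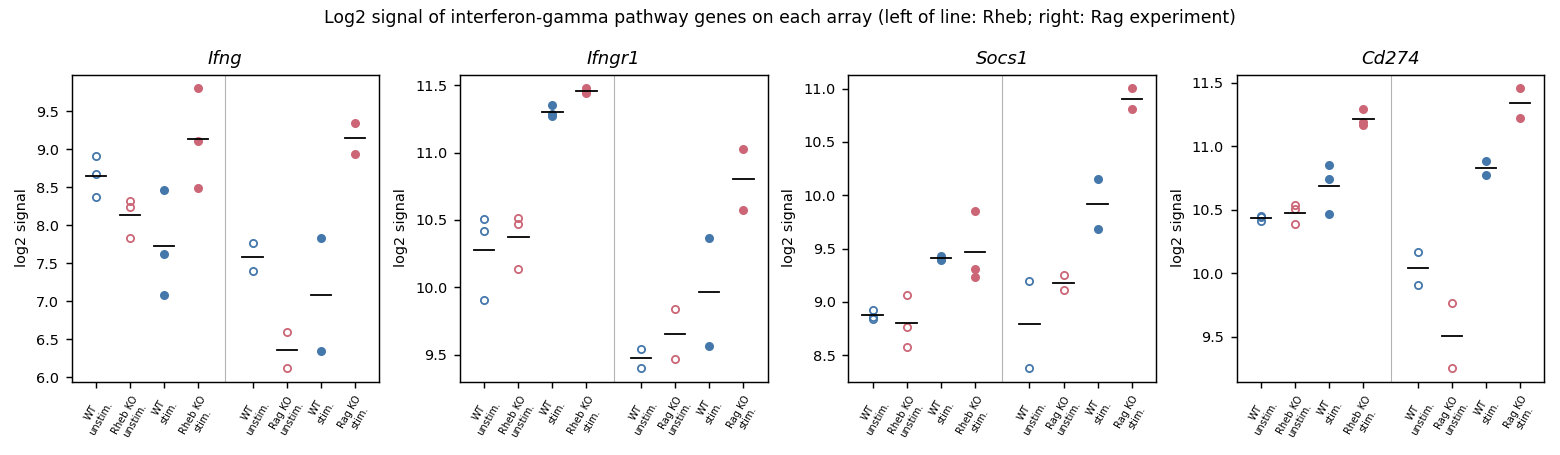
Log2 signal on each array of Ifng (the ligand), Ifngr1 (a receptor chain), Socs1 (a feedback inhibitor) and Cd274 (an interferon-gamma-induced checkpoint ligand), by group; symbols as open for unstimulated, filled for stimulated, blue for WT and red for KO, with the group mean as a bar. The mean of Ifng is highest in stimulated KO of both experiments, with a range of 8.48 to 9.80 in Rheb KO and 8.94 to 9.34 in Rag KO.

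Further GTPase genes, not all of them from the Gbp and immunity-related families, showed the pattern in part. Of 15 written, which include atlastins and Gvin1, 8 were measured and none was called in a knockout comparison or interaction. The interaction was above 0 in both experiments for 6 of the 8: in the Rheb and Rag experiments it was 0.34 and 1.53 log2 for Gbp8, 0.54 and 0.71 for Gbp9, 0.40 and 0.99 for Gbp4, 0.34 and 1.07 for Gvin1, 0.33 and 0.73 for Tgtp2, and 0.30 and 0.77 for Atl3, an atlastin. It was below 0 for Irgc1 (-0.07 and -0.36) and Irgq (-0.21 and -0.07), which lay at 6.40 to 7.36 and at 7.73 to 8.74 log2 over all arrays. In WT, Gbp8 and Gbp9 had lower means after stimulation (-0.27 and -0.80 for Gbp8, -0.24 and -0.53 for Gbp9), where Gbp2, Gbp3 and Gbp7 had higher ones. Paralogs of the Gbp and immunity-related GTPase families are similar in sequence, and how far a probe set also detects its relatives was not tested.

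Genes of the other interferon lists were called in few comparisons. In stimulated Rheb KO, Cxcl9 (a chemokine, 1.50 ± 0.24 log2, adjusted p = 0.0163), Cd274 (0.53 ± 0.11, adjusted p = 0.0451) and the inflammasome protease Casp1 (0.81 ± 0.10, adjusted p = 0.00526) rose against WT. Cd274 kept its call under 4 of 19 alternatives and none of the 12 without an array, Casp1 under all 19, and Cxcl9 under 12 of 18, its losses including each stimulated WT array and KO stimulated array 3 left out (0.0538 to 0.0743). Casp1 was the only called gene of 17 autophagy and inflammasome genes, all measured. In unstimulated Rheb KO the type I genes Ifitm3 (0.76 ± 0.10, adjusted p = 0.00536) and Rsad2 (0.76 ± 0.15, adjusted p = 0.0421) rose while Gbp2 and Gbp3 fell; Rsad2 was called under 6 of 18 alternatives and Ifitm3 under all 19. In stimulated Rag KO Usp18 rose by 1.93 ± 0.31 (adjusted p = 0.0356), called under 12 of 17 alternatives and lost without either WT unstimulated array (0.102), WT stimulated array 2 (0.654) or either KO stimulated array (0.458 and 0.114), where 33 of 37 type I genes were above 0 (median 0.40 against -0.05 for all genes).

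Among genes with an ordinary symbol (no Gm, Rik, LOC or clone number), those most like Gbp2 over the 20 arrays, each gene being centred within each experiment, were Iigp1 (Pearson's r = 0.98), Ezh2 (0.97), Zfp948 (0.95), Igtp (0.95) and Gpsm2 (0.95). For Iigp1 they were Gbp2 (0.98), Igtp (0.98), Mlec (0.97), Alcam (0.96) and Gpsm2 (0.96). These values are a description: the 20 arrays share their groups and their scaling, so that a gene that differs with stimulation is alike to any other that does. Ezh2, a histone methyltransferase subunit, was higher after stimulation by 1.45, 1.57, 1.14 and 1.80 log2 in WT and KO of the Rheb and then the Rag experiment, and Gpsm2 by 1.39, 1.34, 0.94 and 1.66. The Gbp2 values in that order were 1.80, 2.88, 1.31 and 2.68, and the difference between these genes was not tested.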

How the data were processed

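The deposited values are log2 gene-level signals that the authors made with RMA in Affymetrix Expression Console 1.1, per the submitters' processing notes. Nothing in the labels says that the experiments were normalized jointly, so levels are compared within an experiment. The table held 28846 probe sets, 19572 with 1 gene and 0 with several; the highest-mean probe set stood for each of 55 genes with several, none of them a member. In R 4.3.3, limma 3.58.1 fitted 1 mean per group to the 4 groups of an experiment (all 8 for the difference between knockouts). A gene was called at a Benjamini-Hochberg adjusted p below 0.05 over 19505 genes; tests are two-sided. No low-signal filter was used, so all 8 members entered. Intervals are 95%. The script was tested on simulated data. The number of arrays, 3 or 2 per group, limits the precision. The members and gene lists were chosen with earlier results of these data known. The text names the members, list genes called in a knockout comparison, and a set of pathway genes chosen whatever their values. Other measured Gbp and Irg genes are named too, with Gvin1 and Atl3. So are the 5 genes with an ordinary symbol most correlated with Gbp2 and with Iigp1. Alternatives were a filter on dim genes, a second quantile normalization, another variance prior, other arrays in the fit, a replicate block, another probe set, and arrays left out; the alternative without the 2 Rag arrays of lowest median and the counts of members above or below 0 were added after seeing the data.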

Additional observations from a re-analysis of the deposited data

Results flagged for a closer look

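Usp18, a type I interferon gene and no member of the GTPase families, had a larger difference between stimulated KO and WT in the Rag than in the Rheb experiment, by 2.12 ± 0.31 log2 (adjusted p = 0.00217 by limma, and called under all 27 alternatives). It was at 11.95 and 11.48 in stimulated Rag KO against 10.15 and 9.42 in WT, while stimulated Rheb KO (10.40, 10.15 and 10.54) and WT (10.50, 10.55 and 10.61) overlapped. No member differed between the knockouts in this test.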

How the results depend on the processing

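The direction counts of the members kept their values within 1.5 times under the alternatives run, except in unstimulated Rag KO when an array was left out. That rule passes shifts of some members. With an array left out, 5 to 8 members were below 0 in unstimulated Rheb KO and likewise in unstimulated Rag KO. In each stimulated knockout comparison 6 to 8 were above 0, and in each interaction 8. Calls of members moved too. In unstimulated Rheb KO the 2 calls became 1 after a second quantile normalization, 0 with all 20 arrays in the fit, 0 with only the 2 groups compared, and 0 to 2 without an array. In stimulated Rheb KO the 0 calls became 1 (Irf1) without the dimmest 40% of genes and 1 with a trended and robust variance prior, which also gave 2 in the Rheb interaction. With all 20 arrays the unstimulated Rag KO had 3 and the Rag interaction 1, and the latter had 0 to 2 without an array. Stimulated and unstimulated Rag WT did not overlap in 4 to 8 members when an array was left out. The cause of these changes was not tested.

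Signs of small differences turned. Irgm1 in unstimulated Rag KO was 0.00565 after the second quantile normalization and 0.00295 without both Rag KO arrays numbered 2, which turned Gbp3 in stimulated Rag KO to 0.0803. With an array left out, the Rheb KO range without stimulation was -0.0180 to 0.0386 for Irf1, -0.283 to 0.0279 for Irgm1 and -0.0733 to 0.216 for Irgm2, and with stimulation -0.0475 to 0.0710 for Iigp1 and -0.0144 to 0.0453 for Gbp3. For Rag KO it was -0.66 to 0.44 for Irgm1, -0.76 to 0.0247 for Irgm2 and -0.55 to 0.18 for Irf1 without stimulation, and -0.37 to 0.30 for Gbp3 and -0.0749 to 0.80 for Iigp1 with it. An array that remains alone in a group is assumed to vary like the other groups.

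Over all genes, unstimulated Rheb KO had 99 calls, 200 with the trended prior, 28 with all 20 arrays, 27 with 2 groups and 39 to 104 without an array; stimulated Rheb KO had 106, 214, 13, 59 and 25 to 106. Unstimulated Rag KO had 22 calls, 43 after the second normalization, 36 without dim genes, 96 with the trended prior, 210 with all 20 arrays, 12 with 2 groups, 486 without both KO arrays numbered 2, and 0 to 530 without an array. Stimulated Rag KO had 20, 42, 57, 106, 227, 274, 93 and 2 to 109 in that order, and 274 without the 2 Rag arrays of lowest median. The Rheb interaction had 0 calls, and 1 without dim genes, 7 with the trended prior and 1 with all 20 arrays. The Rag interaction had 0, and 1, 10 and 25 under these, 196 without both KO arrays numbered 2 and 0 to 387 without an array. The difference between the knockouts had 11 calls without stimulation (21 after the second normalization, 17 without dim genes, 6 with the trended prior, 820 without both KO arrays numbered 2, 3 without the arrays of lowest median, 5 to 871 without an array) and 37 with it (64, 59 without both KO arrays numbered 2, 124 without the arrays of lowest median, 12 to 130).

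Whether replicate numbers pair the samples is not stated in the labels. In the Rheb experiment the deviations of same-numbered arrays correlated over 0.1 in 2 of 18 pairs, and those of differently numbered arrays in 6 of 36. The counts in the Rag experiment were 6 of 12 and 2 of 12. With 2 arrays per group the deviations of a group mirror each other, so this check cannot decide on a pairing there. With the replicate number as a block, the calls over all genes were 69 and 52 in unstimulated and stimulated Rheb KO, 27 and 42 in Rag KO, 0 in both interactions and 10 and 42 for the difference between the knockouts. The members called with the block were 2 in unstimulated Rheb KO and 0 elsewhere. With 3 or 2 arrays per group, differences of the size of the standard errors given could not be resolved.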
